A study of Mus musculus with 18 samples.

Results

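The 48 genes described here are members of the type I interferon response, taken from a given list by gene symbol and measured in c-kit+ cells of mouse bone marrow. All 48 were found among the 41079 genes of the 2 count tables, and none of the members was without fragments over the 18 libraries. The list names genes and uses no measured value, although it was drawn up with earlier results on these libraries known. The cells carried AE9a, a truncated splice form of the RUNX1-RUNX1T1 (AML1-ETO) leukaemia fusion, or were wild type (WT). Cells of each genotype had received C16, RE or the solvent DMSO. The groups are thus AE9a with C16, AE9a with RE, AE9a with DMSO, WT with C16, WT with RE and WT with DMSO, with 3 libraries in each. C16 and RE are compounds given by code name only. How AE9a was introduced, whether it came from 1 clone or several mice, and the mouse strain, dose and length of treatment are not given in the sources used here. Nothing in the labels ties a replicate to an animal or culture of its own. P-values therefore measure the spread between these libraries, which may be technical.

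Type I interferons are secreted when a cell senses foreign or misplaced nucleic acid, and they act through the receptor IFNAR and the kinases JAK1 and TYK2. The kinases activate STAT2, which works with IRF9 in the factor ISGF3, and ISGF3 binds a short response element in the promoters of many genes. IRF7, itself a product of the response, drives more interferon, and blood stem and progenitor cells are known to carry part of this program without infection.

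Since the response element is the known link from ISGF3 to such genes, the promoters of 5 members whose levels the results turn on are shown, from 250 bases before to 50 bases after the annotated start, 5′ to 3′ on the strand of the gene, from RefSeq on GRCm38.p6. Capitals mark the core of the response element, GAAA followed after any 2 bases by a further GAAA, on either strand. Ifit1 holds 2 such matches and Isg15 holds 3 that overlap, Oas3 and Gbp2 hold 1 each, and in Irf7 the letters do not occur in this window.
Ifit1, chr19:34640639-34640938, plus strand: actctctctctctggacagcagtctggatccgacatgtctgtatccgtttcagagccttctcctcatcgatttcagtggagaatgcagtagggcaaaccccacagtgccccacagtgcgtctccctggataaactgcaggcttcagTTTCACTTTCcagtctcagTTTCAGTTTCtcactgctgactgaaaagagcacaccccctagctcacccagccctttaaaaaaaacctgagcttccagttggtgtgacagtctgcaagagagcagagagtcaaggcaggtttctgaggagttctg
Isg15, chr4:156200769-156201068, minus strand: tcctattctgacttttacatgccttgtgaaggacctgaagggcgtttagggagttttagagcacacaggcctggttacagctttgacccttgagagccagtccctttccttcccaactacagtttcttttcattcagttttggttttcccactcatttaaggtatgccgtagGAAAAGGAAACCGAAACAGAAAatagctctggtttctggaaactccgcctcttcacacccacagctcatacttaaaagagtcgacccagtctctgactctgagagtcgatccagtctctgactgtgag
Oas3, chr5:120777610-120777909, minus strand: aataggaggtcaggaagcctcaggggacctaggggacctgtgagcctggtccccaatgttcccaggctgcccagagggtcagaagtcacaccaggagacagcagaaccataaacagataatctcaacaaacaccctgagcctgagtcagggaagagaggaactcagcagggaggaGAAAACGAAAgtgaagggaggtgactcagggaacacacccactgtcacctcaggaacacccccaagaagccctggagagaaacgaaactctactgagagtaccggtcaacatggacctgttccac
Gbp2, chr3:142620413-142620712, plus strand: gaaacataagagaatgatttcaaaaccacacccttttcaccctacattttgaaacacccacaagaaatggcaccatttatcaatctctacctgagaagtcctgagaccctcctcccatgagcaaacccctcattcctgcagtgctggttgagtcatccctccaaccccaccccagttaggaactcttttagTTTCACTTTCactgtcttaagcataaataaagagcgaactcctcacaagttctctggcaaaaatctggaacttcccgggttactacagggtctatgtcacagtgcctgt
Irf7, chr7:141266375-141266674, minus strand: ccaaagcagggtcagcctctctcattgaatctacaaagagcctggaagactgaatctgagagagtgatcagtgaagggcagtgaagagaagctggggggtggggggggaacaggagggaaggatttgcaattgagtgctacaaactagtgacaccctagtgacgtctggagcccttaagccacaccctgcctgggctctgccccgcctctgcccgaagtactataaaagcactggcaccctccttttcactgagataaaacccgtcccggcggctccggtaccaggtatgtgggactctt
In Ifit1 the matches begin 104 and 85 bases before the start, in Isg15 the first begins 78 bases before it, in Oas3 75 and in Gbp2 59.

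Promoter sequences were matched by symbol for 37 of the 48 members; Oas2, Usp18, Dhx58, Zbp1, Mx1, Mx2, Rtp4, Ifi27l2a, Parp9, Parp14 and Iigp1 had none. A member with several annotated starts was counted if any of them held the motif. The core lay in 18 of the 37 members (48.6%), and in 19 of their 45 promoters (42.2%), against 3.44% of 32851 mouse promoters of the same length. The longer form, one that adds CT after the second GAAA, and so contains the core, lay in 11 members (29.7%), and in 12 of the 45 promoters (26.7%), against 0.271% of all promoters. TTCNNNGAA, the form bound by STAT dimers, lay in 10 members (27%), and in 10 of the 45 promoters (22.2%), against 8.3% of all. Both strands were searched for each motif. As a description, the median log2 difference of AE9a DMSO over WT DMSO cells was 1.39 in members with the core and 0.92 in matched members without it, and 0.76 in members with TTCNNNGAA and 1.36 in those without it.

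Library totals ran from 16053727 to 27207748 fragments, and the 9 AE9a and the 9 WT libraries stand in separate tables, so that genotype and anything else that differed between the tables cannot be told apart. Levels are given in CPM, the usual unit of a gene's fragments scaled to the total of its library. Kit, the gene for the selected surface marker, was found in every library, at 215 to 1551 CPM in AE9a and 60.8 to 221 CPM in WT cells. Runx1t1, part of the fusion, lay at 34.5 to 46.8 CPM in AE9a cells with RE or DMSO and at 0 to 0.402 CPM in WT cells. In AE9a cells with C16 it was 2.35, 4.06 and 0.205 CPM, the last being 4 fragments in replicate 3, within the range of WT libraries. By root mean square log2 difference over all genes tested, AE9a C16 replicate 3 lay 0.843 and 0.867 from the other libraries of its group, which lay 0.491 apart, and 0.947 from WT C16 replicate 2. In WT replicate 2, 8 markers of megakaryocytes and platelets summed to 305, 538 and 398 CPM under C16, RE and DMSO, against 2708 to 10780 CPM in the other WT libraries. Its 8 neutrophil markers summed to 3529, 20670 and 9651 CPM, against 1895 to 3359 CPM in the other WT libraries. Results that rest on AE9a replicate 3 or WT replicate 2 are therefore given with and without them. Shares of all genes called are given only for the main edgeR test on every library. Other settings can change calls over all genes too. Member counts from those settings are given without such a share, and are not read as particular to the members. Less RNA per cell and fewer cells of a type cannot be told apart in bulk libraries such as these.

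**Figure D1:**
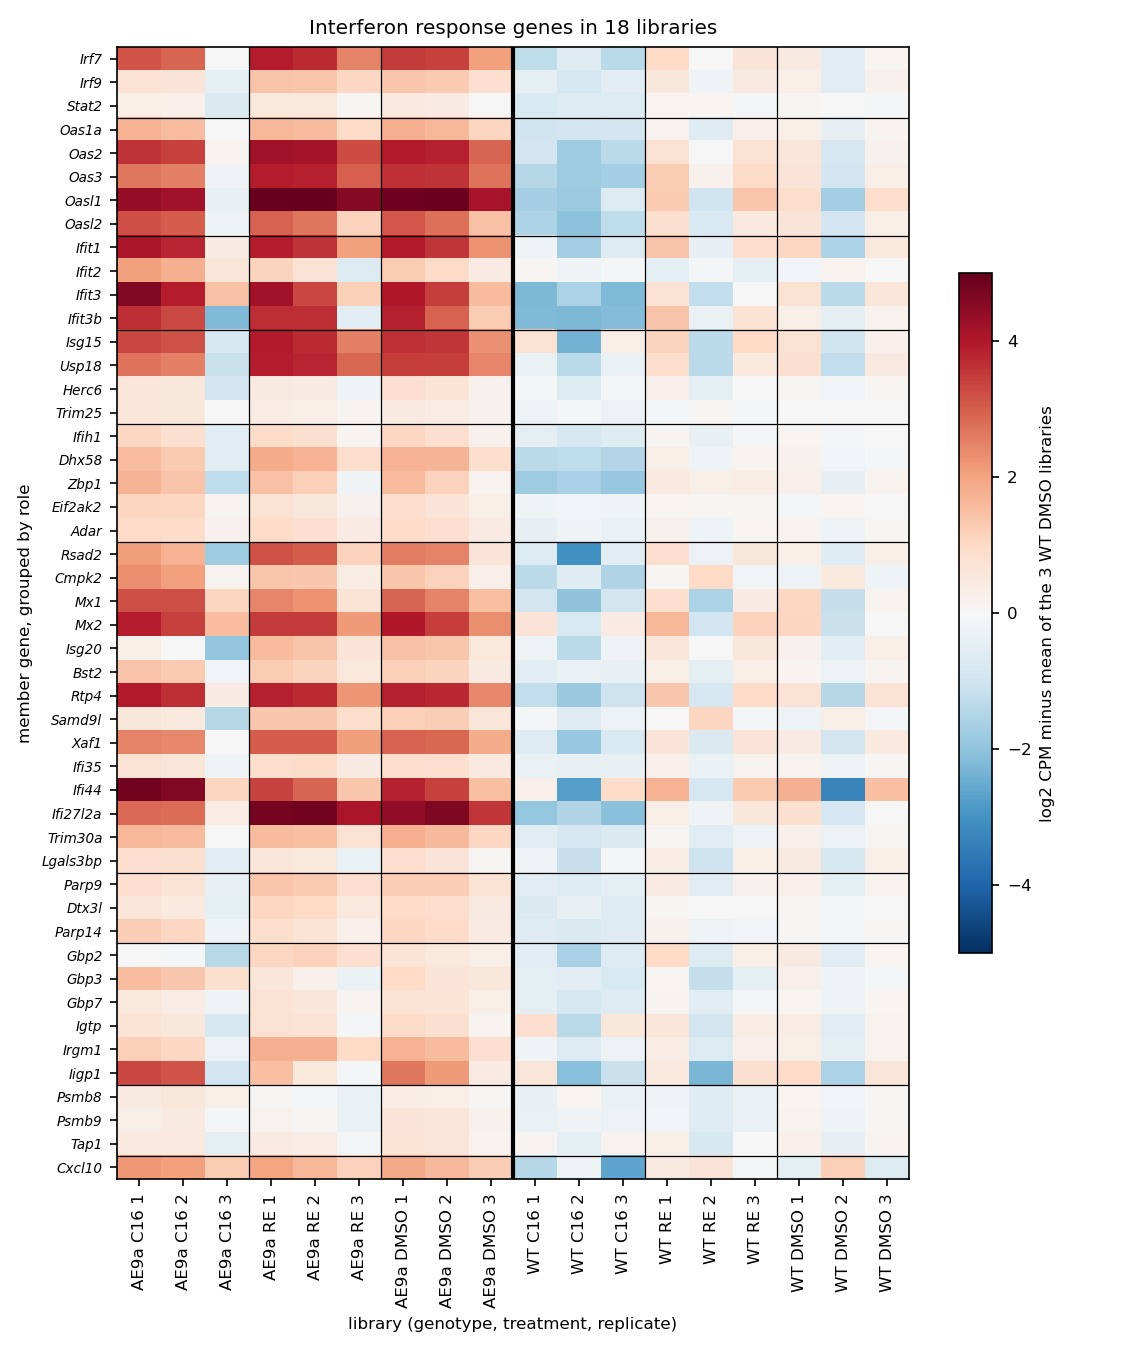
Log2 CPM of each of the 48 members (rows, by role) in each of the 18 libraries (columns), as the difference from the mean of the 3 WT DMSO libraries of that gene; red is higher and blue lower. The AE9a libraries on the left other than C16 replicate 3 are mostly red, replicate 3 of each AE9a group is lower than replicates 1 and 2, and the WT C16 libraries are mostly blue.

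Per kilobase of exon, the members spanned from abundant to barely measured in AE9a DMSO cells. Bst2, whose product tetherin holds budding virus at the cell surface, had the highest mean at 176.6 CPM per kilobase, against 91.9 in WT DMSO cells. Ifi27l2a, a small interferon-induced mitochondrial membrane protein, came next with 134 against 7.51 in WT DMSO cells. Psmb8, a subunit of the immunoproteasome, had 131.5 against 109.7, and Lgals3bp, a secreted galectin-binding glycoprotein, 117.3 against 85.8. Isg15, the ubiquitin-like modifier of the response, had 53.2 against 6.06, and Irf7 had 52.0 against 6.25. At the low end, Iigp1, a GTPase that attacks parasite vacuoles, had 0.853 against 0.266 and Ifit3b 0.422 against 0.0414 CPM per kilobase.

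Every member had its lowest level in replicate 3 of each AE9a group. Replicate 3 was the lowest library for 48 of 48 members under C16, under RE and under DMSO, against 38.6%, 35.2% and 32.8% of all 15809 genes tested. The difference of replicate 3 from the mean of replicates 1 and 2 had a median over the members of -1.64 log2 units under C16, -0.81 under RE and -0.73 under DMSO. The same median over all genes tested was 0.0056, 0.00052 and 0.00047. Under DMSO the members ranged from -2.15 for Ifit3b to -0.20 for Trim25, the ubiquitin ligase that acts on the RNA sensor RIG-I. Members 1 log2 unit or more below numbered 36 of 48 under C16, 15 under RE and 17 under DMSO, against 9.32%, 2.59% and 2.43% of all genes tested.

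The size of the drop varied with the gene. Ifit1, which binds foreign RNA ends, was at 23.3, 19.3 and 1.79 CPM in AE9a C16 replicates 1, 2 and 3, at 21.2, 17.1 and 5.73 CPM under RE and at 21.5, 16.4 and 6.57 CPM under DMSO. Rsad2, or viperin, which makes a chain-ending nucleotide, was at 21.2, 16.9 and 1.44 CPM under C16, 45.2, 41.3 and 10.99 CPM under RE and 29.1, 28.1 and 7.84 CPM under DMSO. Replicates 1 and 2 of these genes lay close together in each group, with replicate 3 apart. Trim25 was at 245, 236 and 160 CPM under C16, 206, 205 and 179 CPM under RE and 220, 210 and 187 CPM under DMSO. Psmb8 was at 183, 197 and 163 CPM under C16, 140, 130 and 106 CPM under RE and 173, 169 and 140 CPM under DMSO. For Trim25 and Psmb8, then, replicate 3 was lowest by a smaller margin. Its difference from the mean of replicates 1 and 2 was -0.59, -0.20 and -0.20 log2 units for Trim25 under C16, RE and DMSO. For Psmb8 it was -0.22, -0.35 and -0.28.

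**Figure D2:**
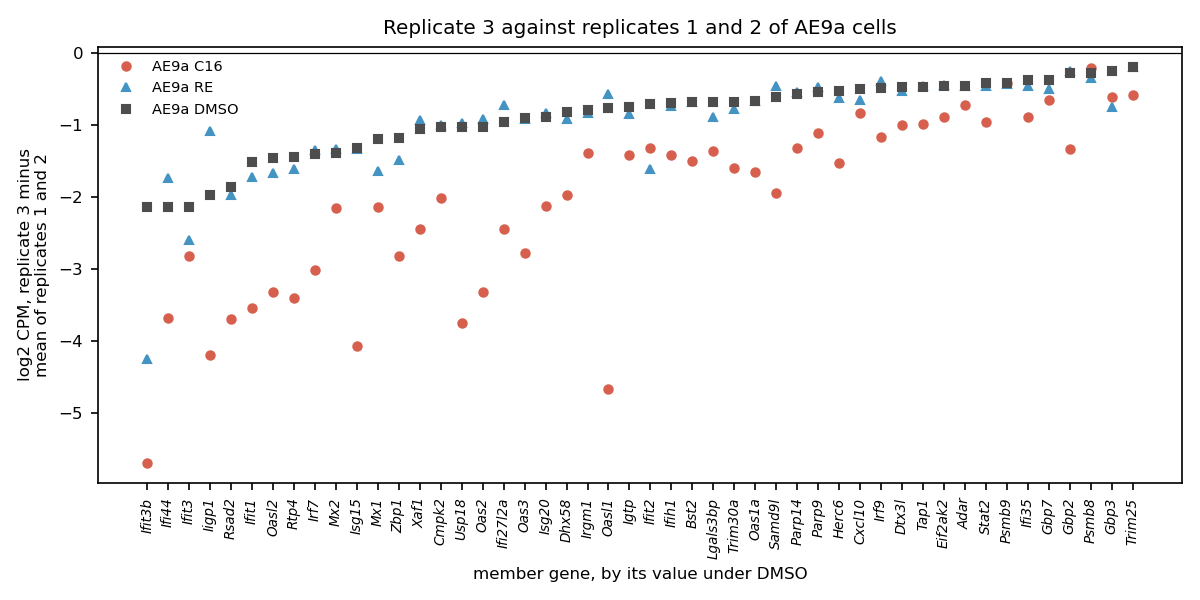
Log2 CPM of AE9a replicate 3 minus the mean of replicates 1 and 2 (vertical axis) for each of the 48 members (horizontal axis, ordered by the value under DMSO), with circles for C16, triangles for RE and squares for DMSO. All points lie below 0, and under C16 the members reach -5.70.

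Members thus varied more among AE9a libraries of a group than other genes did. The median SD of log2 CPM over the 48 members was 0.947 under C16, 0.476 under RE and 0.440 under DMSO in AE9a cells, against 0.125, 0.0998 and 0.1095 over all genes tested. In WT cells it was 0.294 under C16, 0.513 under RE and 0.425 under DMSO, against 0.282, 0.256 and 0.213 over all genes. In WT cells replicate 2 was the lowest library for 30 members under C16, 41 under RE and 42 under DMSO, against 44.7%, 52.6% and 47.2% of all genes. The median of the members in a library, as log2 CPM less the WT DMSO mean, was 1.59, 1.38 and -0.21 in AE9a C16 replicates 1 to 3, 1.47, 1.38 and 0.73 with RE and 1.52, 1.36 and 0.63 with DMSO. In WT cells it was -0.51, -0.86 and -0.64 with C16, 0.40, -0.47 and 0.29 with RE and 0.28, -0.45 and 0.13 with DMSO.

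**Figure D3:**
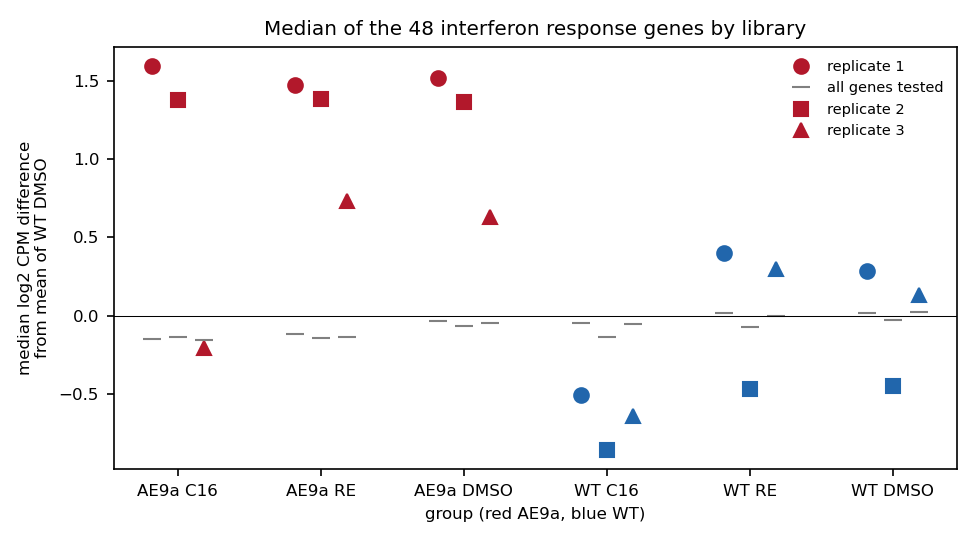
Median over the 48 members of log2 CPM less the mean of the 3 WT DMSO libraries, for each library (red AE9a, blue WT; the symbol gives the replicate), with a grey dash for the same median over all genes tested. AE9a replicates 1 and 2 lie between 1.36 and 1.59 in every group, AE9a replicate 3 lies below them, and AE9a C16 replicate 3 lies at -0.21, within the range of the WT libraries.

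By a stricter rule, which asked for a drop in replicate 3 of all 3 AE9a groups, the set of genes was small and left out most members. Of 15809 genes tested, 49 (0.31%) were more than 1 log2 unit under both other libraries in replicate 3 of all 3 AE9a groups. Among them were 10 members, namely Ifit3b, Ifit3, Ifi44, Rsad2, Ifit1, Oasl2, Rtp4, Irf7, Mx2 and Isg15. A further 5 came from the list of other interferon-stimulated genes (Gbp6, Ddx60, Tgtp2, Phf11d and Gbp9). From the marker lists there were 3, namely C1qa and C1qb, complement genes of macrophages, and Retnlg, a neutrophil gene. C1qb was at 7.99, 7.497 and 0.513 CPM under C16, 1.70, 1.36 and 0.316 CPM under RE and 3.73, 4.59 and 0.815 CPM under DMSO. Named after their values were seen, Siglec1, Ccl8, Ccl12, Igf1, Gas6, Cd36, Slfn4, Ifi206, Ifi208 and Ifi211 were also in the set. So were 5 immunoglobulin genes of B and plasma cells, Ighg2c, Igkv15-103, Ighv5-17, Ighg2b and Ighv7-1, with mean levels of 0.0593 to 1.73 CPM over the AE9a libraries and median drops of -4.41 for Ighg2c to -1.51 for Ighv7-1 on the log2 scale. The 7 B lineage markers in the tables summed to 68.5, 61.1 and 53.9 CPM in AE9a C16 replicates 1 to 3, 67.6, 41.3 and 37.1 CPM under RE and 87.0, 57.9 and 63.1 CPM under DMSO. The 10 monocyte and macrophage markers together summed to 1146, 1058 and 1356 CPM in AE9a C16 replicates 1 to 3, 856, 816 and 564 CPM under RE and 1159, 1098 and 1147 CPM under DMSO, and none of the 10 was at 0 in a whole group. The 8 neutrophil markers summed to 1623, 1571 and 1282 CPM in AE9a C16 replicates 1 to 3 and 4986.5, 4420 and 3526 CPM under RE. Under DMSO they summed to 3599.5, 3064 and 3322 CPM, where replicate 3 was not the lowest. The part of these cells in the members' levels was not tested. Totals of replicate 3 were 19493511, 19012736 and 19641112 fragments under C16, RE and DMSO, against 18211787 to 27207748 in replicates 1 and 2 of AE9a cells.

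With DMSO, many interferon response genes stood higher in AE9a cells than in WT cells. Of the 48 members, 28 were higher and 0 lower (edgeR adjusted p under 0.05), where 26.7% of all 15809 genes tested were called in either direction and 12.9% were called higher. All 48 had a positive log2 fold change, with a median of 1.16, against -0.054 over all genes tested. For 38 members every AE9a DMSO library lay above every WT DMSO library, as did 21.8% of all genes. Cell type markers differed too. Progenitor markers summed to 2026.5 to 2522 CPM in AE9a DMSO cells and 876 to 1312 CPM in WT DMSO cells. B lineage markers summed to 57.9 to 87.0 CPM and 154 to 228 CPM in the same groups. Of the mast cell and basophil markers 6 of 9 were higher and 2 lower, with sums of 7826 to 10087 CPM in AE9a DMSO and 2585 to 3747 CPM in WT DMSO cells. Of the erythroid markers 5 of 8 were higher and 1 lower (279 to 329 against 27.7 to 111 CPM), and of the megakaryocyte markers 0 were higher and 3 of 8 lower (264 to 389 against 398 to 3028 CPM). Plasmacytoid dendritic cells, known as strong makers of interferon, had 0 markers higher and 1 of 7 tested lower, with sums of 89.7 to 111 against 100.4 to 145 CPM, and 0 of their 8 genes were at 0 in either group. The part of these markers in the result was not tested.

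Among the factors that carry the signal, Irf7 (chromosome 7, 140843096 to 140846412 on GRCm39, minus strand) was at 131, 123 and 47.9 CPM in AE9a DMSO libraries, against 15.9, 7.87 and 12.5 CPM in WT DMSO libraries. The lowest AE9a library was thus well above the highest WT library, and the log2 fold change was 3.08 ± 0.66 (SE, edgeR adjusted p = 0.0032). Irf9, the DNA-binding part of ISGF3, was at 99.4, 98.6 and 70.6 CPM against 49.4, 26.6 and 46.1 CPM, higher by 1.16 ± 0.29 (edgeR adjusted p = 0.0095). Stat2, its activating part, was at 112, 106 and 80.8 CPM against 84.3, 80.8 and 75.4 CPM, and with overlapping groups its change of 0.33 ± 0.21 did not pass the test (edgeR adjusted p = 0.27).

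All 5 members of the OAS family, whose enzymes make short adenylate chains that switch on the RNA-cutting enzyme RNase L, were higher. Oasl1, which in mice holds back translation of Irf7 mRNA, was at 63.6, 64.8 and 37.8 CPM in AE9a DMSO libraries, against 3.92, 0.618 and 3.96 CPM in WT DMSO libraries (log2 fold change 4.31 ± 0.93, edgeR adjusted p = 0.0032). Oas2 was at 174, 162 and 82.2 CPM against 16.9, 6.18 and 12.7 CPM, and was higher by 3.57 ± 0.67. Oas3 was at 237, 228 and 124 CPM against 29.3, 9.50 and 23.4 CPM, and was higher by 3.27 ± 0.60. Oasl2, an OAS-like gene 10929 bases from Oasl1 on chromosome 5, was higher by 2.47 ± 0.74 and Oas1a by 1.55 ± 0.37. No AE9a library of these 5 genes overlapped a WT library.

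Of the 4 IFIT genes, which lie together on chromosome 19 between 34527961 and 34627409, 2 passed. Ifit1 was at 21.5, 16.4 and 6.57 CPM in AE9a DMSO libraries, against 2.77, 0.450 and 1.95 CPM in WT DMSO libraries (3.12 ± 0.86, edgeR adjusted p = 0.015). Ifit3 was at 5.83, 3.97 and 1.07 CPM against 0.577, 0.112 and 0.528 CPM (3.16 ± 0.93, edgeR adjusted p = 0.021). Ifit3b, a near copy of Ifit3 with which it may share fragments, had 3.27 ± 1.34 (edgeR adjusted p = 0.090), and Ifit2 0.92 ± 0.40 (edgeR adjusted p = 0.10), both without overlap. In the ISG15 system, Isg15 was at 51.9, 48.7 and 20.01 CPM against 6.87, 2.02 and 4.86 CPM (3.15 ± 0.94, edgeR adjusted p = 0.023). Usp18, which strips ISG15 from proteins and damps the receptor, was at 87.4, 87.1 and 42.8 CPM against 13.6, 3.37 and 10.7 CPM (3.0 ± 0.79, edgeR adjusted p = 0.011). Herc6, the mouse ISG15 ligase, had 0.63 ± 0.33 and Trim25 0.37 ± 0.13, and neither passed the test.

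Of the 5 sensors of nucleic acid, 3 were higher, namely Dhx58 (LGP2) by 1.51 ± 0.40, Adar, which edits adenosines in double-stranded RNA, by 0.77 ± 0.19, and Eif2ak2 (PKR), which stops translation, by 0.65 ± 0.20. Ifih1 (MDA5) had 0.75 ± 0.31 and Zbp1, a sensor of left-handed nucleic acid, 1.07 ± 0.56, without passing. Of the 14 antiviral effectors, 8 were higher. Ifi27l2a was at 131, 152 and 72.2 CPM in AE9a DMSO libraries, against 10.5, 3.37 and 6.02 CPM in WT DMSO libraries (4.18 ± 0.58, edgeR adjusted p = 1.2e-04). Rtp4, a chaperone that also binds and restrains RNA viruses, was at 61.4, 56.4 and 21.5 CPM against 6.75, 1.52 and 6.71 CPM (3.24 ± 0.83). Mx2, a dynamin-like GTPase, was at 8.54, 5.99 and 2.70 CPM against 1.10, 0.225 and 0.528 CPM (3.23 ± 0.76). Mx1 was higher by 2.19 ± 0.71, and so were Xaf1, Trim30a, Bst2 and Ifi35. Rsad2 had 2.08 ± 0.82 (edgeR adjusted p = 0.075), and Cmpk2, Isg20, Samd9l, Ifi44 and Lgals3bp did not pass either.

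Parp9, Dtx3l and Parp14, a group of factors linked to ADP-ribosylation, were all higher, by 1.05 ± 0.30, 0.79 ± 0.23 and 0.85 ± 0.28. Dtx3l and Parp9 lie on opposite strands of chromosome 16 and overlap by 38 bases, and since strand was not used in counting, some of their fragments could belong to either. Of the 6 interferon-inducible GTPases, which gather on the membranes of pathogens, Irgm1 (1.42 ± 0.37) and Gbp7 (0.57 ± 0.20) were higher, and Gbp2, Gbp3, Igtp and Iigp1 did not pass. Of the antigen processing genes, Psmb9 was higher by 0.50 ± 0.17, while Psmb8 had 0.28 ± 0.15 and Tap1, the peptide pump next to it, 0.50 ± 0.29. Cxcl10, a chemokine that draws T cells, was at 6.70, 5.59 and 4.28 CPM against 1.27, 4.10 and 1.11 CPM, a change of 1.36 ± 0.53 that did not pass (edgeR adjusted p = 0.072).

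**Figure D4:**
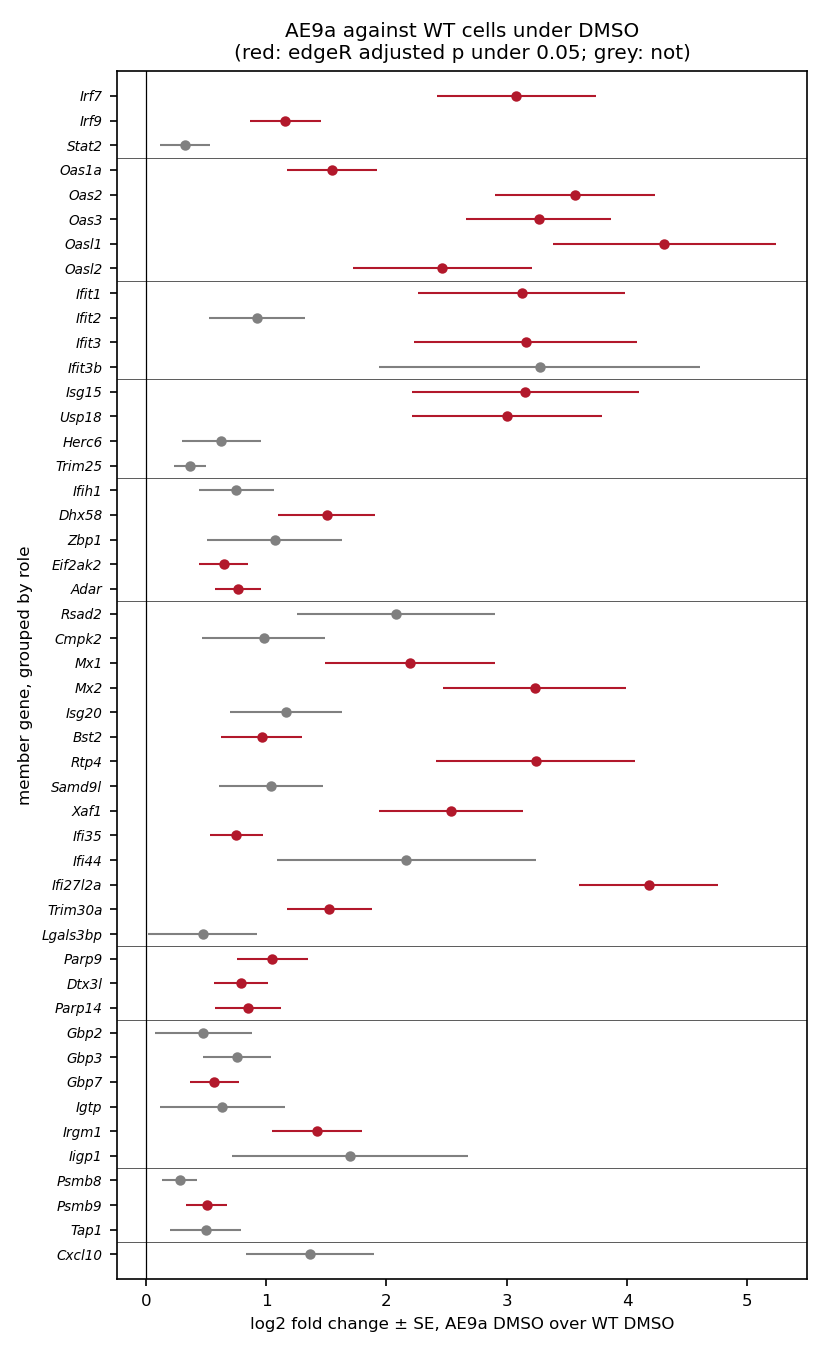
Log2 fold change of AE9a DMSO over WT DMSO cells with its SE (horizontal axis) for each of the 48 members (rows, by role), in red where the edgeR adjusted p was under 0.05 and in grey where it was not. All points lie right of 0, from 0.28 for Psmb8 to 4.31 for Oasl1.

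The count under DMSO was sensitive to single libraries. It was 16 without AE9a DMSO replicate 1, 16 without AE9a DMSO replicate 2, 17 without WT DMSO replicate 2 and 18 without WT DMSO replicate 3, and without all 3 libraries of AE9a replicate 3 it was 39. In each of these the members called were all higher. The share of all genes called in these settings is not given.

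Under C16 the genotypes differed in more members. Of the 48, 41 were higher in AE9a C16 than in WT C16 cells and 0 lower, where 35% of all genes tested were called and 16.1% were called higher. The median log2 fold change was 1.95, against 0.024 over all genes. Ifit3 was at 8.99, 5.52 and 0.975 CPM in AE9a C16 libraries against 0.0509, 0.0976 and 0.0527 CPM in WT C16 libraries, which in WT C16 cells were 1, 2 and 1 fragments (6.17 ± 1.16, edgeR adjusted p = 0.0040). Ifit3b had 59 fragments over the AE9a C16 libraries and 0 over the WT C16 libraries, which makes it at least 17.9-fold higher against a floor of 3 fragments over the group. Mx1 was at 26.9, 26.9 and 6.05 CPM against 1.48, 0.683 and 1.48 CPM (4.09 ± 0.78). Cmpk2, a mitochondrial nucleotide kinase that lies 12669 bases from Rsad2, was at 59.5, 49.1 and 13.3 CPM against 4.58, 7.71 and 4.11 CPM (2.93 ± 0.55). Isg20, Samd9l, Herc6, Gbp2, Igtp, Tap1 and Lgals3bp did not pass. With replicate 3 of AE9a C16 so low, 31 members had no overlap with AE9a higher and 0 with AE9a lower (18.3% and 20.7% of all genes). The count was 27 without WT C16 replicate 3 and 42 without AE9a C16 replicate 3.

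Under RE, 26 of 48 members were higher in AE9a than in WT cells and 0 lower, where 35.8% of all genes were called and 17.8% were called higher, and the median was 1.02 against -0.049 over all genes. In 30 members every AE9a RE library lay above every WT RE library, as in 21.1% of all genes. Ifi27l2a was at 167, 170 and 102 CPM in AE9a RE libraries, against 7.29, 5.23 and 8.98 CPM in WT RE libraries (4.42 ± 0.58, edgeR adjusted p = 5.1e-05). Oasl1 was higher by 4.17 ± 0.91, Oas2 by 3.47 ± 0.66, Usp18 by 3.40 ± 0.80, Isg15 by 3.0 ± 0.93 and Irf7 by 2.98 ± 0.65. Without the 3 libraries of AE9a replicate 3 the count was 40. Over all treatments together, Ifit3 and Eif2ak2 were the 2 members with each of the 9 AE9a libraries above each of the 9 WT libraries (1.09% of all genes), and without AE9a C16 replicate 3 there were 27 such members (2.35%).

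Other genes of the pathway were compared from lists of ligands, receptors, factors, sensors, regulators and further targets. None of 9 interferon ligands, among them Ifnb1, Ifna4 and Ifng, had enough fragments to be tested, and the highest level of any in any library was 0.111 CPM, for Ifng. Of 9 receptors and kinases, 1 was higher (Jak1, by 0.37 ± 0.06) and 1 lower (Jak2, by -0.65 ± 0.12) in AE9a cells when the DMSO groups were compared. Of 12 transcription factors, 3 were higher and 1 lower, where 12.9% of all genes were higher and 13.8% lower. Sp100, a nuclear body protein, was higher by 1.12 ± 0.25. Of 16 upstream sensors and adaptors tested, 1 was higher (Mavs, the adaptor of the RNA sensors, by 1.08 ± 0.16) and 1 lower (Tlr4, by -1.02 ± 0.29). Of 8 negative regulators, 1 was higher and 2 lower, with Socs3 lower by -1.07 ± 0.21 and Socs1 by -0.63 ± 0.16. Of 55 other interferon-stimulated genes tested, 17 were higher and 2 lower, with a median of 0.47. Oas1g was the furthest up at 2.45 ± 0.60, and Ifitm2 (-0.89 ± 0.12) and Ifitm1 (-0.83 ± 0.14), membrane proteins that block virus entry, were the 2 that were lower.

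In AE9a cells 4 members fell with C16 and 0 rose by the edgeR test. The 4 were Ifi27l2a, Isg20, Gbp2 and Irf9. Of all 14704 genes tested, 66.3% were called in either direction, 33.1% higher and 33.2% lower. The members' share in this test was thus below the background. The members varied more than other genes among the libraries of a group, and a wider spread gives larger errors. Its part in the low share was not tested. The low share therefore does not show that the members changed less than other genes. The median log2 change was -0.24, against 0.0027 over all genes. Ifi27l2a was at 42.6, 41.2 and 7.64 CPM in AE9a C16 libraries, against 131, 152 and 72.2 CPM in AE9a DMSO libraries, and fell by 1.91 ± 0.53 on the log2 scale (SE, edgeR adjusted p = 0.0097). Isg20, an RNA exonuclease, was at 17.8, 14.48 and 3.64 CPM against 39.9, 38.2 and 21.03 CPM, and fell by 1.42 ± 0.47 (edgeR adjusted p = 0.024). Gbp2 was at 12.2, 11.8 and 4.72 CPM against 19.9, 17.97 and 15.5 CPM, and fell by 0.84 ± 0.28 (edgeR adjusted p = 0.024). Irf9 was at 65.4, 62.1 and 28.3 CPM against 99.4, 98.6 and 70.6 CPM, and fell by 0.75 ± 0.28 (edgeR adjusted p = 0.039). In these 4 genes no C16 library overlapped a DMSO library, and replicate 3 was the lowest in both groups. Of the 48 members, 6 had every C16 library below every DMSO library and 0 above, against 37.4% and 33.3% of all genes.

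The other 44 members did not pass. Irf7 was at 102, 88.2 and 11.6 CPM in AE9a C16 libraries, against 131, 123 and 47.9 CPM in AE9a DMSO libraries, and Isg15 at 42.0, 37.0 and 2.31 CPM against 51.9, 48.7 and 20.01 CPM. Neither passed, with changes of -0.55 ± 0.68 and -0.53 ± 0.74. Ifi44, an interferon-induced cytoplasmic protein, was at 23.6, 20.5 and 1.69 CPM against 11.9, 8.82 and 2.29 CPM, and Cmpk2 was at 59.5, 49.1 and 13.3 CPM against 31.0, 26.4 and 13.9 CPM. For these 2 genes C16 replicates 1 and 2 lay above every DMSO library and replicate 3 below every one. Against the mean of the 3 DMSO libraries, 15 members were lower in C16 replicate 1 and 23 in C16 replicate 2, but 46 in C16 replicate 3. That mean includes DMSO replicate 3, the lowest DMSO library for all 48 members, which lowers it. Set against the DMSO library of the same number, 28 members were lower in all 3 C16 libraries and 4 higher. The same held for 40.9% and 35.9% of all genes, and the numbers were not taken to pair these groups.

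**Figure D5:**
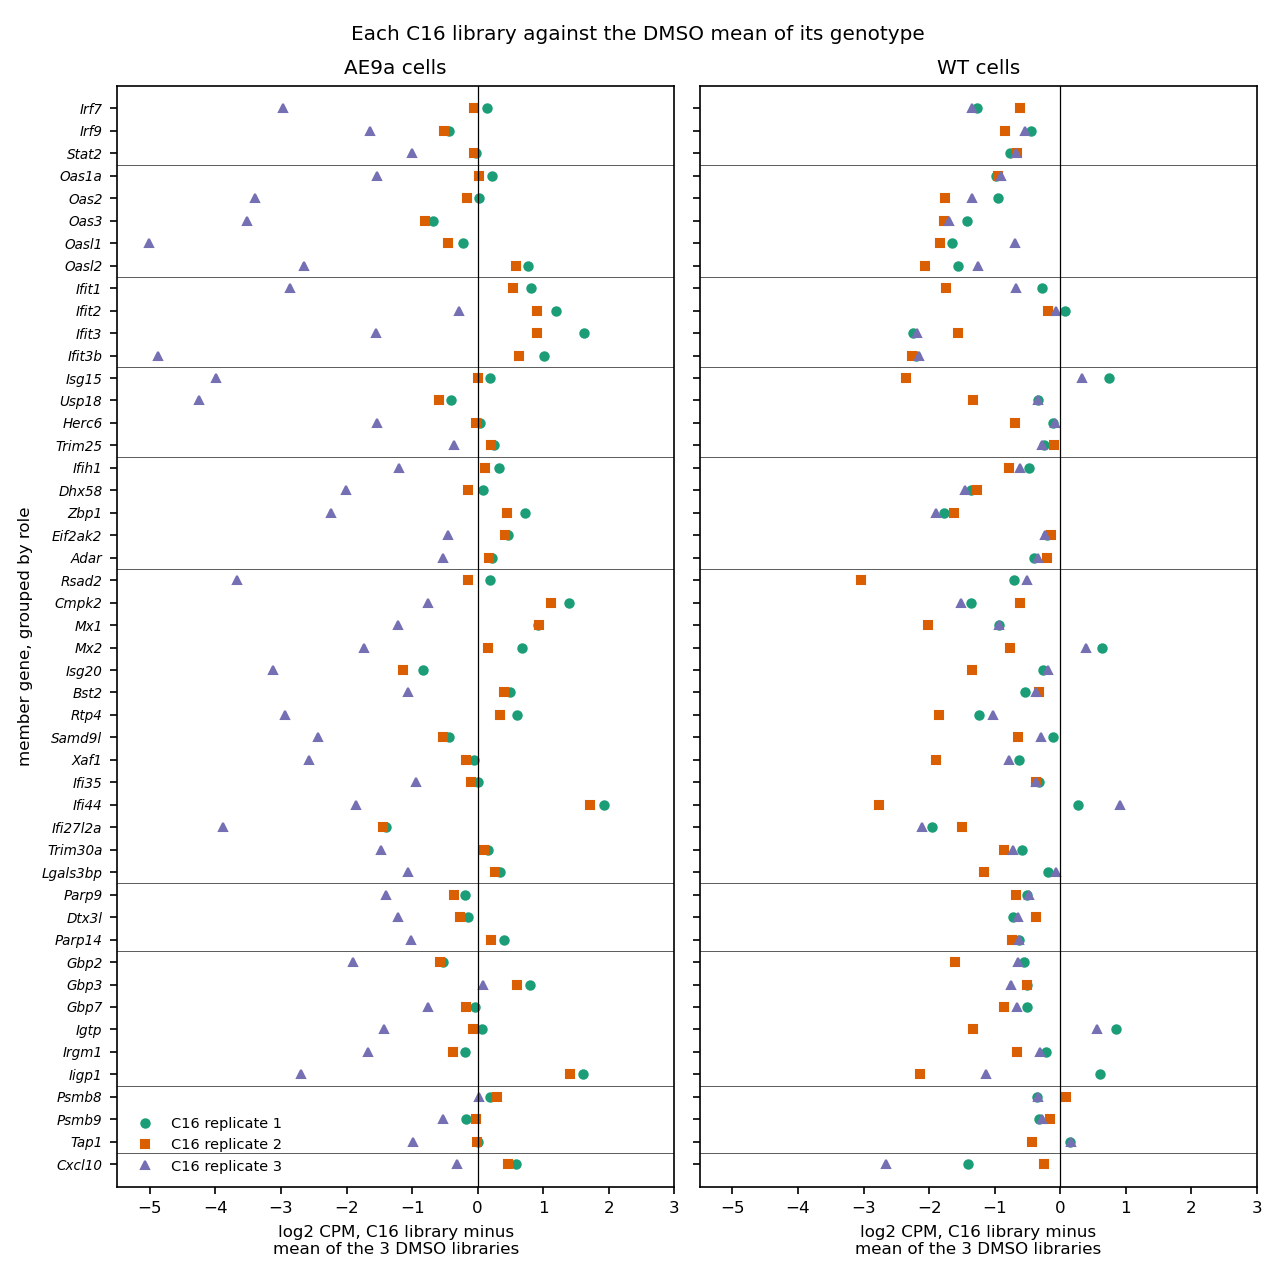
Log2 CPM of each C16 library minus the mean of the 3 DMSO libraries of the same genotype (horizontal axis) for the 48 members (rows, by role), with AE9a cells left and WT cells right; circles, squares and triangles are C16 replicates 1, 2 and 3. In AE9a cells replicate 3 lies far left of replicates 1 and 2, down to -5.01 for Oasl1, and in WT cells most points of all 3 libraries lie left of 0. The AE9a DMSO mean includes DMSO replicate 3, the lowest DMSO library for all 48 members.

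Without the 3 libraries of AE9a replicate 3, an alternative chosen after their levels were seen, 33 members were called, 10 higher and 23 lower with C16. The 4 fallers above were among them. The share of all genes called in this setting is not given here. It was 66.3% in the main test, so the count is not read as particular to the members. Oas3 fell by 1.01 ± 0.05, Usp18 by 0.81 ± 0.07, Rsad2 by 0.57 ± 0.11 and Irf7 by 0.39 ± 0.08 on the log2 scale. Ifi44 rose by 1.13 ± 0.17, Cmpk2 by 0.95 ± 0.10, Iigp1 by 0.87 ± 0.25, Ifit2 by 0.85 ± 0.14, Gbp3 by 0.64 ± 0.14 and Mx1 by 0.55 ± 0.13, so members moved in both directions. Leaving out AE9a C16 replicate 3 alone gave 12 calls, 7 of them higher, and leaving out AE9a DMSO replicate 1 or replicate 2 gave 1. Cell markers moved with C16 in AE9a cells. Progenitor markers summed to 883 to 1053 CPM with C16 against 2026.5 to 2522 CPM with DMSO. Neutrophil markers summed to 1282 to 1623 CPM against 3064 to 3599.5 CPM. All 8 erythroid markers fell, with sums of 1.33 to 18.5 CPM against 279 to 329 CPM in AE9a DMSO cells, and 7 of 9 mast cell and basophil markers fell (279 to 1808 against 7826 to 10087 CPM). Of the 10 monocyte and macrophage markers 2 rose and 1 fell (1058 to 1356 against 1098 to 1159 CPM). Of the 7 plasmacytoid dendritic cell markers tested 2 rose and 5 fell (103 to 106 against 89.7 to 111 CPM). Their part in the members' changes was not tested.

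Among the other pathway lists, 4 of 9 receptors and kinases fell with C16 in AE9a cells and 2 rose, where 66.3% of all genes were called, 33.1% higher and 33.2% lower. Counted in either direction, this list and the sensors that follow are near that share, and the other interferon-stimulated genes are below it. Jak1 fell by 0.63 ± 0.05, Tyk2 by 0.54 ± 0.04 and Jak2 by 0.56 ± 0.06, while the receptor chain Ifnar2 rose by 0.25 ± 0.06 and Ifngr1 by 0.94 ± 0.11. Of 16 upstream sensors and adaptors 8 rose and 3 fell; Sting1 rose by 0.52 ± 0.11 and the DNA sensor Cgas by 0.46 ± 0.13, and Mavs fell by 1.06 ± 0.05. Of 55 other interferon-stimulated genes 5 rose and 11 fell, and the largest falls included Ube2l6 (-2.25 ± 0.34) and Uba7 (-1.45 ± 0.27), the enzymes that load ISG15 onto proteins.

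Between RE and DMSO in AE9a cells, no member differed beyond the spread of these libraries in the main test. None of 48 was called by edgeR, with 2 at an unadjusted p under 0.05 and 2 called by DESeq2, where 29% of all genes tested were called. The median change was 0.040, against -0.0081 over all genes. Irf7 was at 176, 155 and 64.5 CPM in AE9a RE libraries, against 131, 123 and 47.9 CPM in AE9a DMSO libraries (0.43 ± 0.67), and Oas3 at 288, 275 and 149 CPM against 237, 228 and 124 CPM (0.31 ± 0.58). In both genes the groups overlapped, with replicate 3 of RE between the lowest and the highest DMSO library. Psmb8 was at 140, 130 and 106 CPM against 173, 169 and 140 CPM (-0.32 ± 0.11, edgeR adjusted p = 0.064), and Psmb9, its partner subunit, at 47.6, 43.6 and 33.7 CPM against 65.8, 63.7 and 48.3 CPM (-0.47 ± 0.17, edgeR adjusted p = 0.064). With replicate number as a block, since the numbers were taken to pair these groups, Psmb8, Psmb9 and Gbp3 fell, by 0.32 ± 0.04, 0.47 ± 0.05 and 0.51 ± 0.11. Without the 3 libraries of replicate 3, 14 members were called, 9 higher and 5 lower, and without AE9a DMSO replicate 3 alone 2 were lower. The 29% of all genes above belongs to the main test and not to these settings.

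Set against RE in AE9a cells, C16 gave 2 members higher and 7 lower, where 74.6% of all genes tested were called (37.5% higher and 37.2% lower), with a median of -0.10 against 0.0066 over all genes. Ifi27l2a was at 42.6, 41.2 and 7.64 CPM in AE9a C16 libraries, against 167, 170 and 102 CPM in AE9a RE libraries, and was lower by -2.26 ± 0.53 (edgeR adjusted p = 0.0035). Oas3 was at 118, 108 and 16.4 CPM against 288, 275 and 149 CPM (-1.55 ± 0.59, edgeR adjusted p = 0.038). Isg20 (-1.55 ± 0.47), Gbp2 (-1.39 ± 0.28), Samd9l, a brake on translation and growth (-1.10 ± 0.43), Irf9 (-0.90 ± 0.28) and Parp9 (-0.72 ± 0.29) were also lower. The 2 that were higher were Gbp3, at 21.4, 18.7 and 13.03 CPM against 11.2, 8.78 and 5.84 CPM (1.04 ± 0.24, edgeR adjusted p = 0.0034), and Psmb8, at 183, 197 and 163 CPM against 140, 130 and 106 CPM (0.52 ± 0.11, edgeR adjusted p = 0.0022). Without AE9a C16 replicate 3 the counts were 11 higher and 9 lower, and without all 3 libraries of replicate 3 they were 13 and 20. Doses of C16 and RE are not known to be matched, so these values compare the treatments as given.

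In WT cells the C16 libraries held less of most members than the DMSO libraries. By edgeR 4 of 46 members tested fell and 0 rose, where 3.1% of all 15046 genes tested were called, 0.957% higher and 2.15% lower; Ifit3 and Ifit3b had too few fragments to be tested in WT cells. The median was -0.61, against 0.011 over all genes, and 42 of the 46 changes were negative. Zbp1 was at 2.75, 3.07 and 2.53 CPM in WT C16 libraries, against 11.1, 7.20 and 10.6 CPM in WT DMSO libraries, and fell by 1.72 ± 0.20 (edgeR adjusted p = 0.018). Dhx58 was at 9.52, 10.1 and 8.91 CPM against 28.1, 22.3 and 23.2 CPM, and fell by 1.30 ± 0.15 (edgeR adjusted p = 0.018). Stat2 was at 47.0, 50.9 and 50.4 CPM against 84.3, 80.8 and 75.4 CPM (-0.63 ± 0.10), and Parp14 at 46.3, 43.1 and 46.2 CPM against 74.8, 66.6 and 74.2 CPM (-0.60 ± 0.11). Every C16 library of these 4 genes lay below every DMSO library, as in 22 members and in 18.8% of all genes. Oas3 (6.92, 5.46 and 5.75 against 29.3, 9.50 and 23.4 CPM) and Ifi27l2a (1.53, 2.097 and 1.37 against 10.5, 3.37 and 6.02 CPM) did not overlap either, but did not pass, at edgeR adjusted p = 0.064 and 0.054.

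Replicate numbers were taken to pair the WT groups by correlation, though no label states a pairing. WT replicate 2 lay apart in every group, which by itself raises such correlations. The rule thus does not show that replicates 1 and 3 pair, and by distance they were not always nearest their own number. With the number as a block, 26 members fell and 0 rose with C16 in WT cells, and without the 3 libraries of WT replicate 2, 38 fell and 1, Igtp, rose. The share of all genes called in these settings is not given here. The 3.1% above belongs to the main test, so the larger counts are not set against it. Set against the WT DMSO library of the same number, 39 of the 48 members were lower in all 3 WT C16 libraries. In all 3, 0 were higher, and the same held for 36.3% (lower) and 20.8% (higher) of all genes. Among those that fell with the block were Oas2 by 1.32 ± 0.18, Oas3 by 1.599 ± 0.24, Oasl2 by 1.58 ± 0.21, Cmpk2 by 1.10 ± 0.13, Xaf1, a pro-apoptotic factor, by 1.05 ± 0.15 and Trim30a by 0.65 ± 0.09. The unblocked count was 0 without WT C16 replicate 1, WT C16 replicate 3, WT DMSO replicate 1 or WT DMSO replicate 3, and DESeq2 called 14, all lower. Among other pathway genes the RNA sensor Rigi fell by 0.92 ± 0.18, Samhd1 by 0.55 ± 0.10, Socs1 by 0.78 ± 0.14, Socs3 by 0.77 ± 0.15 and Irf5 by 1.20 ± 0.19, and of 54 other interferon-stimulated genes 6 fell and 0 rose. Of the marker lists, 4 of 7 B lineage genes and 2 of 10 monocyte and macrophage genes fell with C16 in WT cells, the monocyte sums being 530 to 1163 CPM against 1115 to 2413 CPM in WT DMSO cells. Sums of other lists differed too. Megakaryocyte and platelet markers summed to 9734, 305 and 10780 CPM in WT C16 replicates 1 to 3, against 3028, 398 and 2708 CPM with DMSO. Erythroid markers summed to 6.78 to 43.4 CPM with C16 against 27.7 to 111 CPM with DMSO. The part of these markers was not tested.

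Between RE and DMSO in WT cells 0 members passed by edgeR, with 1 at an unadjusted p under 0.05 and 0 by DESeq2, where 0.0266% of all genes were called, and the median was 0.090 against 0.017 over all genes. In 1 member every RE library lay above every DMSO library and in 1 below, against 5.08% and 8.48% of all genes. Oas3 was at 44.5, 21.5 and 36.6 CPM in WT RE libraries, against 29.3, 9.50 and 23.4 CPM in WT DMSO libraries (0.75 ± 0.39), and Irf7 at 22.9, 11.52 and 18.4 CPM against 15.9, 7.87 and 12.5 CPM (0.56 ± 0.34). Replicate 2 was the lowest of both groups for each gene. Without the 3 libraries of WT replicate 2, 1 member was higher and 1 lower. Set against RE in WT cells, C16 gave 11 members lower and 0 higher, where 11.9% of all genes were called, 5.4% higher and 6.49% lower, with a median of -0.73 against -0.012 over all genes. Oas3 was lower by -2.45 ± 0.41, Zbp1 by -2.103 ± 0.20, Ifi27l2a by -2.05 ± 0.42, Oasl2 by -1.86 ± 0.49, Oas2 by -1.83 ± 0.38 and Irf7 by -1.59 ± 0.35, and Dhx58, Stat2, Ifih1, Parp14 and Dtx3l were the others. With the block 29 were lower and 0 higher. The count was 4 without WT C16 replicate 1, 3 without WT C16 replicate 3, 3 without WT RE replicate 1 and 5 without WT RE replicate 3, and without the 3 libraries of replicate 2 it was 36 lower and 1 higher. The 11.9% of all genes above belongs to the main test and not to the block or these settings.

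Whether the response to a compound differed between genotypes was tested as an interaction. For C16, the AE9a change minus the WT change passed for 0 of 48 members by edgeR, with 4 at an unadjusted p under 0.05 and 2 called by DESeq2, where 13.1% of all genes tested were called, 4.78% in the positive and 8.29% in the negative direction. The median of this difference was 0.47, against 0.062 over all genes. Gbp3 (1.13 ± 0.40, edgeR adjusted p = 0.075) and Cmpk2 (1.95 ± 0.73, edgeR adjusted p = 0.089) came nearest to the threshold. The count was 4 without AE9a C16 replicate 3, 4 without WT C16 replicate 2, 5 without the 3 libraries of AE9a replicate 3 and 3 without those of WT replicate 2. For RE, 0 members passed, with 0 at an unadjusted p under 0.05 and 0 by DESeq2, where 0% of all genes were called, and the median difference was -0.085.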

How the data were processed

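RNA of c-kit+ bone marrow cells was sequenced by a service provider, per the labels' protocols. The deposited values are raw counts of fragments per gene: per the file headers, featureCounts 1.6.2 counted read pairs over exons, primary alignments only and without strand, on GRCm39. Per the submitters' processing notes, the tools named were HISAT2 2.1.0, featureCounts 2.0.3, DESeq2, fastp 0.23.2 and FastQC 0.11.9; the featureCounts versions differ.

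Members and lists were chosen with earlier results of these data known. Genes passing filterByExpr were scaled by TMM and tested with edgeR 4.0.16 quasi-likelihood tests in R 4.3.3 (Benjamini-Hochberg over all genes tested, threshold 0.05). Each genotype's 9 libraries had a fit of their own for the treatments (14704 genes in AE9a, 15046 in WT), while genotypes and interactions were tested over all 18 (15809 genes). Errors are SE of the log2 fold change. CPM uses the library total, and log2 CPM a prior count of 0.5. Members named in a comparison are a set of 15 fixed members and up to 6 with the largest change among those called, with at least 5 CPM and no overlap between groups. Other genes named beside them were chosen after their values were seen. The scripts were tested on simulated data. Alternatives were DESeq2 1.42.0, RLE scaling, no filter, a replicate block, 1 fit of all libraries and leaving out libraries.

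Replicate numbers were taken to pair groups where each same-number correlation of deviations from group means was over 0.1. That held for AE9a RE with DMSO (0.232 to 0.278) and the WT groups (0.496 to 0.815), not for AE9a C16 with DMSO (from 0.067) or RE (from 0.0812), nor between genotypes. No label states a pairing, and WT replicate 2, apart in every group, by itself raises the WT correlations. Results on 1 gene of the pathway lists are not reported here.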

Additional observations from a re-analysis of the deposited data

How the results depend on the processing

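RLE scaling changed no count of members called by more than 2. DESeq2 gave 14 instead of 4 for C16 against DMSO in WT cells, 2 instead of 0 for RE against DMSO in AE9a cells and 2 instead of 0 for the genotype difference in the C16 response. One fit of all 18 libraries gave 2 instead of 4 for C16 against DMSO in AE9a cells. A replicate block gave 25 members for C16 against DMSO (7 higher, 18 lower) and 29 for C16 against RE in AE9a cells, 13 for the genotype difference in the C16 response, 3 for RE against DMSO in AE9a cells, and 26 and 29 for C16 against DMSO and against RE in WT cells; it moved no other count by over 1.5 times. In the AE9a C16 pairs every library correlated best with its own number, but the lowest correlations were 0.067 and 0.0812. Without the 3 libraries of AE9a replicate 3, counts were 33 for C16 against DMSO, 14 for RE against DMSO and 33 for C16 against RE in AE9a cells, 40 for AE9a against WT under RE and 5 for the difference in the C16 response. Without the 3 libraries of WT replicate 2 they were 39, 2 and 37 for the same comparisons in WT cells and 3 for the difference. Leaving out 1 library at a time gave 1 to 12 members for C16 against DMSO in AE9a cells, where 12 (7 higher) reversed the prevailing direction, 0 to 2 for RE against DMSO, 6 to 20 for C16 against RE, where 20 (11 higher) did so, 0 to 6, 0 and 3 to 13 for the same comparisons in WT cells, 16 to 28 under DMSO, 27 to 42 under C16 and 18 to 34 under RE between genotypes, and 0 to 4 and 0 for the differences in response to C16 and RE. The cause of these changes was not tested. For 68 called changes of named members, the settings gave 816 values in all. Of these, 703 kept direction and call, 113 lost the call and 0 reversed. For 121 changes that were not called the settings gave 1632 values, of which 120 passed the threshold and 124 changed sign. Low levels limit Ifit3, Ifit3b, Iigp1 and Ifi44 in WT cells.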
